A study of Mus musculus with 18 samples.

Results

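Cholesterol synthesis, uptake and SREBP control was followed as a set of 28 genes, fixed by name, of the 54532 genes in an expression table of mouse liver cells. All 28 names were found in the table, each in a single row. The set holds 8 genes of the mevalonate segment (Acat2, Hmgcs1, Mvk, Pmvk, Mvd, Idi1, Fdps and Ggps1), 11 of the squalene and sterol segment (Fdft1, Sqle, Lss, Cyp51, Tm7sf2, Msmo1, Nsdhl, Hsd17b7, Ebp, Sc5d and Dhcr7), 6 of SREBP control (Srebf2, Scap, Mbtps1, Mbtps2, Insig1 and Insig2) and 3 of sterol uptake, transfer and esterification (Npc1l1, Stard4 and Soat2). Polyadenylated RNA was sequenced from hepatocytes (MPH in the labels), from biliary epithelial cells (BECs in the labels) and from Kupffer-like cells of mice after bile duct ligation (BDL) and of mice after sham surgery (Sham), with 3 libraries in each of the 6 groups. Ligation of the bile duct blocks the outflow of bile and is a surgical model of cholestasis. The labels give no genotype, strain or age and no time after ligation. The cell types were isolated from whole liver, and the labels do not say whether libraries are single animals or pools, so p-values reflect only how these libraries vary.

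Cholesterol is built from cytosolic acetyl-CoA by way of mevalonate, the isoprenoid diphosphates, squalene and a series of sterols, and hepatocytes are a main site of this synthesis. The genes of the pathway are switched on by the transcription factor SREBP2, the product of Srebf2, which Scap carries from the endoplasmic reticulum to the Golgi, where the proteases encoded by Mbtps1 and Mbtps2 cut it free. The Insig proteins hold Scap in the endoplasmic reticulum when sterols are plentiful, and SREBP2 acts on sterol regulatory elements together with NF-Y, a factor that binds CCAAT.

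Promoter windows, running from 250 bases before to 50 bases after a RefSeq transcription start in GRCm38.p6, were matched to 23 of the 28 members by symbol. The sterol element was searched as TCACNCCAC on both strands and was found in 1 of the 23 members, Hmgcs1, against 1.44% of 27025 genes. Its letters there were TCACCCCAC, 137 bases before the start. CCAAT, searched on both strands, was in 19 of 23 members (82.6%), against 41.1% of all genes. The GC box GGGCGG was also in 19 of 23, against 38.2% of all genes, and the E-box CACGTG in 5 of 23 (21.7%), against 8.09%. Members with several starts had several chances to hold a match. A match describes letters only, and the promoters of active genes in general were not set beside those of the members. Tm7sf2 and Pmvk were the members with an adjusted p under 0.05 (limma) after ligation in hepatocytes. Their windows and those of Insig1, Insig2 and Hmgcs1, the last chosen for its sterol element, are given 5′ to 3′ on the gene's strand. The windows show TCACNCCAC and CCAAT (or its reverse complement ATTGG) in capitals. They lie at chr19:6067801-6068100 on the minus strand (Tm7sf2), chr3:89454291-89454590 on the plus strand (Pmvk), chr5:28071162-28071461 on the plus strand (Insig1), chr1:121332540-121332839 on the minus strand (Insig2) and chr13:119690101-119690400 on the plus strand (Hmgcs1).
Tm7sf2: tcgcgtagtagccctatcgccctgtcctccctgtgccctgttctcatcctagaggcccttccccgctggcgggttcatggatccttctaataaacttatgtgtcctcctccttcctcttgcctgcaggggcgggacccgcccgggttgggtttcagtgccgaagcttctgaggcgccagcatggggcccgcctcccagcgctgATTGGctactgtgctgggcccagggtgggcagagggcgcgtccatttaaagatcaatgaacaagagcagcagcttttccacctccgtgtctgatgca
Pmvk: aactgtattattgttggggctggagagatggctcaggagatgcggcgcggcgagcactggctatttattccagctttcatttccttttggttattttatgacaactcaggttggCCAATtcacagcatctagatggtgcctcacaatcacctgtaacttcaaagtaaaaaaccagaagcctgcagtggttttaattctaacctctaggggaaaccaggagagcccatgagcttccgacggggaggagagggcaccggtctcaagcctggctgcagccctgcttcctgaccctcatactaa
Insig1: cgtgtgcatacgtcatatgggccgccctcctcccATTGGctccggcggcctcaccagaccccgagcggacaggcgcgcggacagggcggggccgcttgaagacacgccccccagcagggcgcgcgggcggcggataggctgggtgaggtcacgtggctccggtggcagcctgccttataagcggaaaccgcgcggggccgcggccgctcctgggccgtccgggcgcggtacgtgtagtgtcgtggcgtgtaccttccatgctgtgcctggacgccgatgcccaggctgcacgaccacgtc
Insig2: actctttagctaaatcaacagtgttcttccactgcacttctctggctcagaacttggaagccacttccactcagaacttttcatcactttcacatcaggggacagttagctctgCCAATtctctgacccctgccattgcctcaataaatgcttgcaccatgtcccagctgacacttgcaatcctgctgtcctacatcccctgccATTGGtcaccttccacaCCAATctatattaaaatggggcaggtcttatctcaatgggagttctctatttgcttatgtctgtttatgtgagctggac
Hmgcs1: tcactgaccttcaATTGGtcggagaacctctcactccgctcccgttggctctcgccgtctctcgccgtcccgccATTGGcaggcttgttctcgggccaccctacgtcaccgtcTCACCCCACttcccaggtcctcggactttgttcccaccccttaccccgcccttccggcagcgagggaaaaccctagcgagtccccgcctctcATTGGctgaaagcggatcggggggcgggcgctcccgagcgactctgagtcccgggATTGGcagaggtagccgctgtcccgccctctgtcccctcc
The Tm7sf2, Pmvk and Insig1 windows each hold a single CCAAT, the Insig2 window holds 3, and the Hmgcs1 window holds 4 beside the sterol element, the nearest 39 bases from it. Pmvk, Insig2, Dhcr7 and Scap have further RefSeq starts, and the other windows of Pmvk and Insig2 hold neither CCAAT nor the sterol element.

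Levels are given as FPKM (fragments per kilobase of exon, scaled to library size by the authors), and reads recovered from these values ran from 15451624 to 20577885 per library. The deposited scaling gave hepatocyte libraries an implied size of 0.517 to 0.741 of their reads, against 1.08 to 1.18 in BECs and 0.934 to 1.22 in Kupffer-like cells, which raises hepatocyte levels relative to a per-total scale. Summed FPKM of 15 hepatocyte markers was 64255 to 118090 in BDL and 52255 to 121580 in Sham hepatocytes, 391.5 to 874.8 in BDL and 1651 to 4153 in Sham BECs, and 1605 to 5079 in BDL and 539.9 to 1149 in Sham Kupffer-like cells. Each cell type was highest in its own markers except that the 12 Kupffer cell markers summed to 2241 to 6632 in BDL and 2422 to 10044 in Sham hepatocytes, against 3084 to 18957 in BDL and 8243 to 9713 in Sham Kupffer-like cells. Clec4f, which defines mouse Kupffer cells, averaged 491.4 FPKM in BDL and 732.8 FPKM in Sham hepatocytes. Y-linked transcripts showed libraries of both sexes in every group. Over all genes, 88 were higher and 106 lower in BDL than in Sham hepatocytes, 402 higher and 638 lower in BDL than in Sham BECs, and 188 higher and 306 lower in BDL than in Sham Kupffer-like cells (limma on log2(FPKM + 1), Benjamini-Hochberg adjusted p under 0.05). Scaling each library to a common FPKM sum moved these to 72 higher and 40 lower in hepatocytes, with 494 and 437 in BECs and with 116 and 593 in Kupffer-like cells. Scaling to recovered reads gave 52 higher and 46 lower in hepatocytes, with 505 and 452 in BECs and with 131 and 488 in Kupffer-like cells. In bulk RNA, fewer cells of a type and less RNA per cell cannot be told apart.

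In hepatocytes after ligation, 2 members fell and none rose among the 27 that passed the filter of FPKM at or above 1 in 3 libraries, and only Npc1l1 did not pass. The background was 0.860% of 12323 genes called lower and 0.714% called higher. Tm7sf2, a sterol reductase that acts after the lanosterol demethylase, fell most. Pmvk, the kinase that phosphorylates phosphomevalonate, was the other. In 24 of 27 members the log2 fold change was negative, with a median of −0.96 against −0.06 over all genes tested. At an unadjusted p under 0.05 there were 16 members of 27, against 22.6% of all genes.

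Tm7sf2 had 9.22, 11.4 and 5.41 FPKM in BDL hepatocytes, against 40.0, 35.3 and 60.1 FPKM in Sham hepatocytes. Every BDL library lay below every Sham library. The gap between the groups was wider than the range within the BDL libraries but not than the range within the Sham libraries. The log2 fold change was −2.27 (SE 0.32, adjusted p = 0.0313). Tm7sf2 shares 12.1% of its exon bases with the neighbouring gene Vps51 on the same strand, and 7.92% of its 100-base windows occur in that gene. Pmvk had 18.9, 9.70 and 13.4 FPKM in BDL hepatocytes, against 67.5, 38.3 and 55.5 FPKM in Sham hepatocytes. These groups did not overlap either, and the log2 fold change was −1.88 (SE 0.31, adjusted p = 0.0466). Both calls sat near the threshold. Leaving out any of the 6 libraries left 0 members called, with an adjusted p for Tm7sf2 between 0.0578 (without BDL replicate 1) and 0.127 (without BDL replicate 2) and log2 fold changes of −2.00 to −2.47. For Pmvk the same fits gave −1.66 to −2.11 and adjusted p from 0.0513 to 0.207. With all 18 libraries in 1 model, 10 members were called lower and 2 higher (Mbtps2 and Soat2), against 11.6% and 5.88% of all genes.

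**Figure D1:**
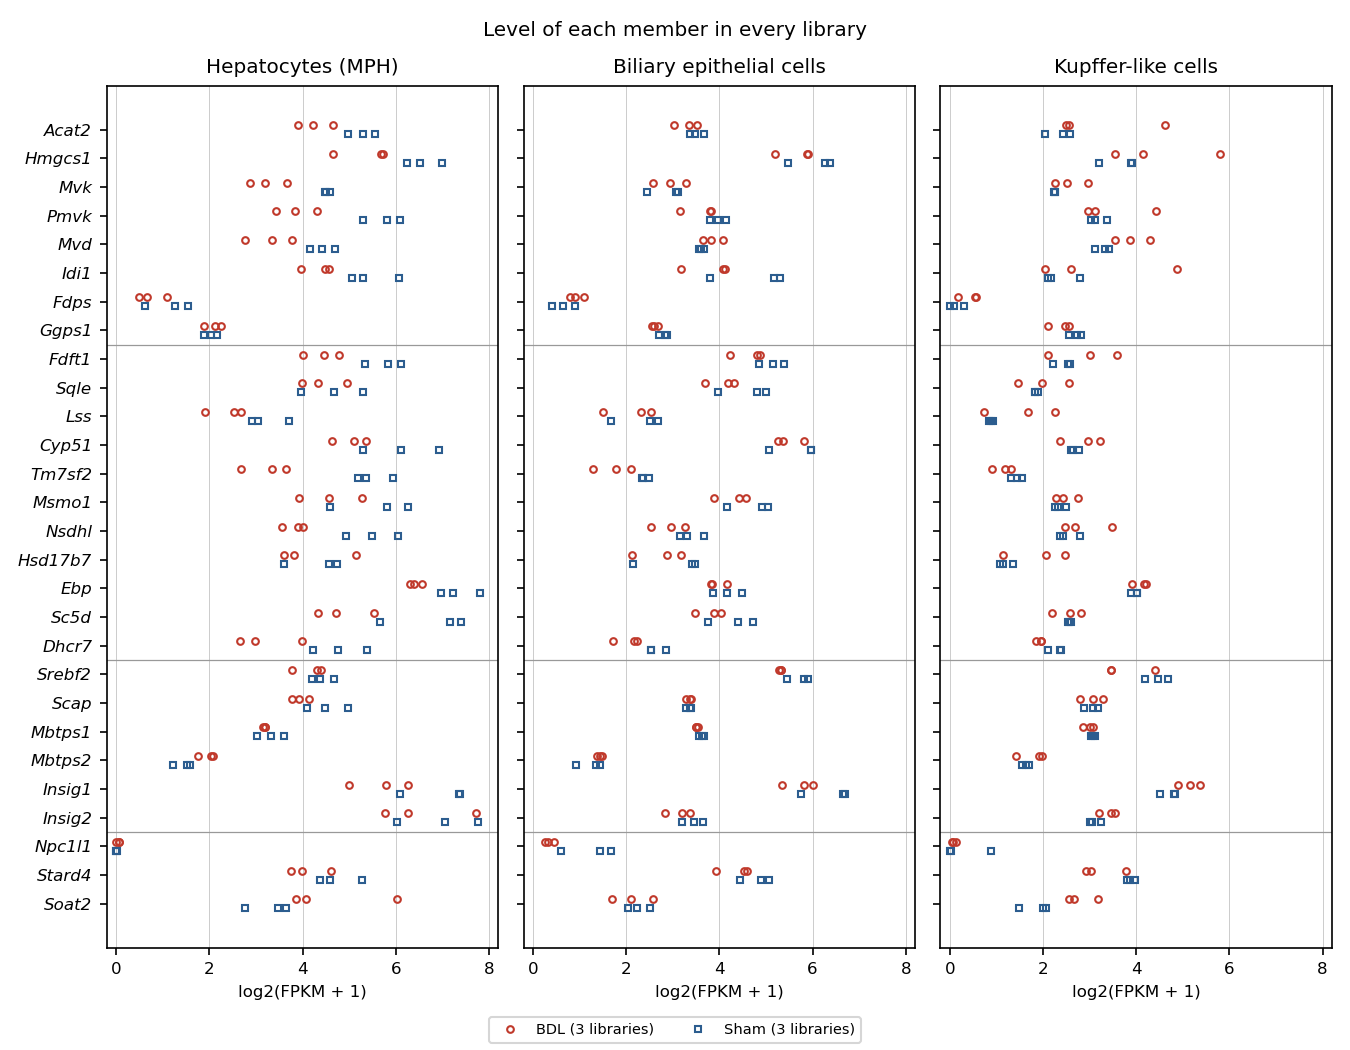
log2(FPKM + 1) of the 28 members (rows, grouped by role) in each library of the 3 cell types, with BDL libraries as red circles above and Sham libraries as blue squares below. In hepatocytes the BDL libraries of Tm7sf2 and Pmvk lie left of all Sham libraries, and Fdps and Npc1l1 lie below 2 in each cell type.

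The mevalonate segment in hepatocytes had a median log2 fold change of −1.14, with 7 of 8 genes negative. Hmgcs1, which makes HMG-CoA, averaged 42.1 ± 16 FPKM in BDL and 97.0 ± 26 FPKM in Sham hepatocytes (SD, n = 3 each), without overlap (log2 fold change −1.23, SE 0.37, adjusted p = 0.123). Mvk, mevalonate kinase, had 11.7, 8.17 and 6.34 FPKM in BDL, against 21.6, 21.2 and 23.2 FPKM in Sham hepatocytes. This was the next largest difference relative to its error in the segment after Pmvk and missed the threshold (−1.27, SE 0.24, adjusted p = 0.0569). Mvd, the decarboxylase that closes the mevalonate steps, averaged 9.17 ± 3.4 FPKM in BDL and 20.7 ± 4.1 FPKM in Sham (−1.13, adjusted p = 0.0945). Idi1, the isomerase of isopentenyl diphosphate, averaged 19.6 ± 4.4 FPKM in BDL and 45.7 ± 18 FPKM in Sham hepatocytes (−1.14, adjusted p = 0.111). Acat2, the cytosolic thiolase at the start of the pathway, averaged 18.5 ± 5.1 FPKM in BDL and 38.1 ± 7.7 FPKM in Sham (−1.02, adjusted p = 0.0949). Of the Acat2 100-base windows, 28.9% also occur in Acat3 or Tcp1, and 21.9% of those of Idi1 occur in other genes, so reads of these members may be shared. Ggps1, which feeds protein prenylation in place of sterols, averaged 3.28 ± 0.54 FPKM in BDL and 3.08 ± 0.42 FPKM in Sham hepatocytes (0.07, SE 0.19). Fdps, farnesyl diphosphate synthase, had 0.587, 0.402 and 1.13 FPKM in BDL, against 0.536, 1.92 and 1.40 FPKM in Sham. Fdps shares 26.7% of its exon bases with Gm43738 on the same strand, and the part of this in its low values was not tested.

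In the squalene and sterol segment all 11 genes had a negative log2 fold change in hepatocytes, with a median of −1.07, and Tm7sf2 was the only one called. Nsdhl, a dehydrogenase of sterol demethylation, had 15.1, 10.8 and 13.9 FPKM in BDL, against 44.1, 29.6 and 65.2 FPKM in Sham hepatocytes. The groups did not overlap and the adjusted p was 0.0577 (log2 fold change −1.67, SE 0.31). Sc5d, a sterol desaturase, had 45.1, 19.1 and 25.2 FPKM in BDL, against 49.6, 142 and 169 FPKM in Sham hepatocytes. Its Sham libraries spanned more than the gap between groups (−1.89, SE 0.53, adjusted p = 0.110). Dhcr7, a reductase at the end of the pathway, averaged 8.96 ± 5.1 FPKM in BDL and 28.1 ± 12 FPKM in Sham hepatocytes (−1.59, adjusted p = 0.103). Fdft1, squalene synthase, averaged 20.9 ± 5.8 FPKM in BDL and 54.5 ± 15 FPKM in Sham (−1.34, adjusted p = 0.0746), and 18.3% of its exon bases lie antisense to Ctsb. Ebp, the sterol isomerase and the member with the highest mean in Sham hepatocytes, averaged 84.9 ± 8.3 FPKM in BDL and 165.8 ± 52 FPKM in Sham (−0.92, adjusted p = 0.129). Lss, lanosterol synthase, averaged 4.29 ± 1.4 FPKM in BDL and 8.60 ± 3.0 FPKM in Sham hepatocytes, also without overlap. Cyp51, the lanosterol demethylase, overlapped between groups at 32.5 ± 8.1 FPKM in BDL and 75.3 ± 41 FPKM in Sham, as did Msmo1, a sterol oxidase, at 24.8 ± 12 FPKM in BDL and 51.2 ± 26 FPKM in Sham. Sqle, squalene epoxidase, and Hsd17b7, a ketosteroid reductase, differed least, with log2 fold changes of −0.23 (SE 0.40) and −0.12 (SE 0.49).

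Counted without a model, every BDL library lay below every Sham library for 13 of the 27 members in hepatocytes, against 18.4% of all genes tested. These were Acat2, Hmgcs1, Mvk, Pmvk, Mvd, Idi1, Fdft1, Lss, Tm7sf2, Nsdhl, Ebp, Sc5d and Dhcr7, all of them synthesis enzymes. Every BDL library lay above every Sham library for 2 members, Mbtps2 and Soat2, against 11.8% of all genes.

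**Figure D2:**
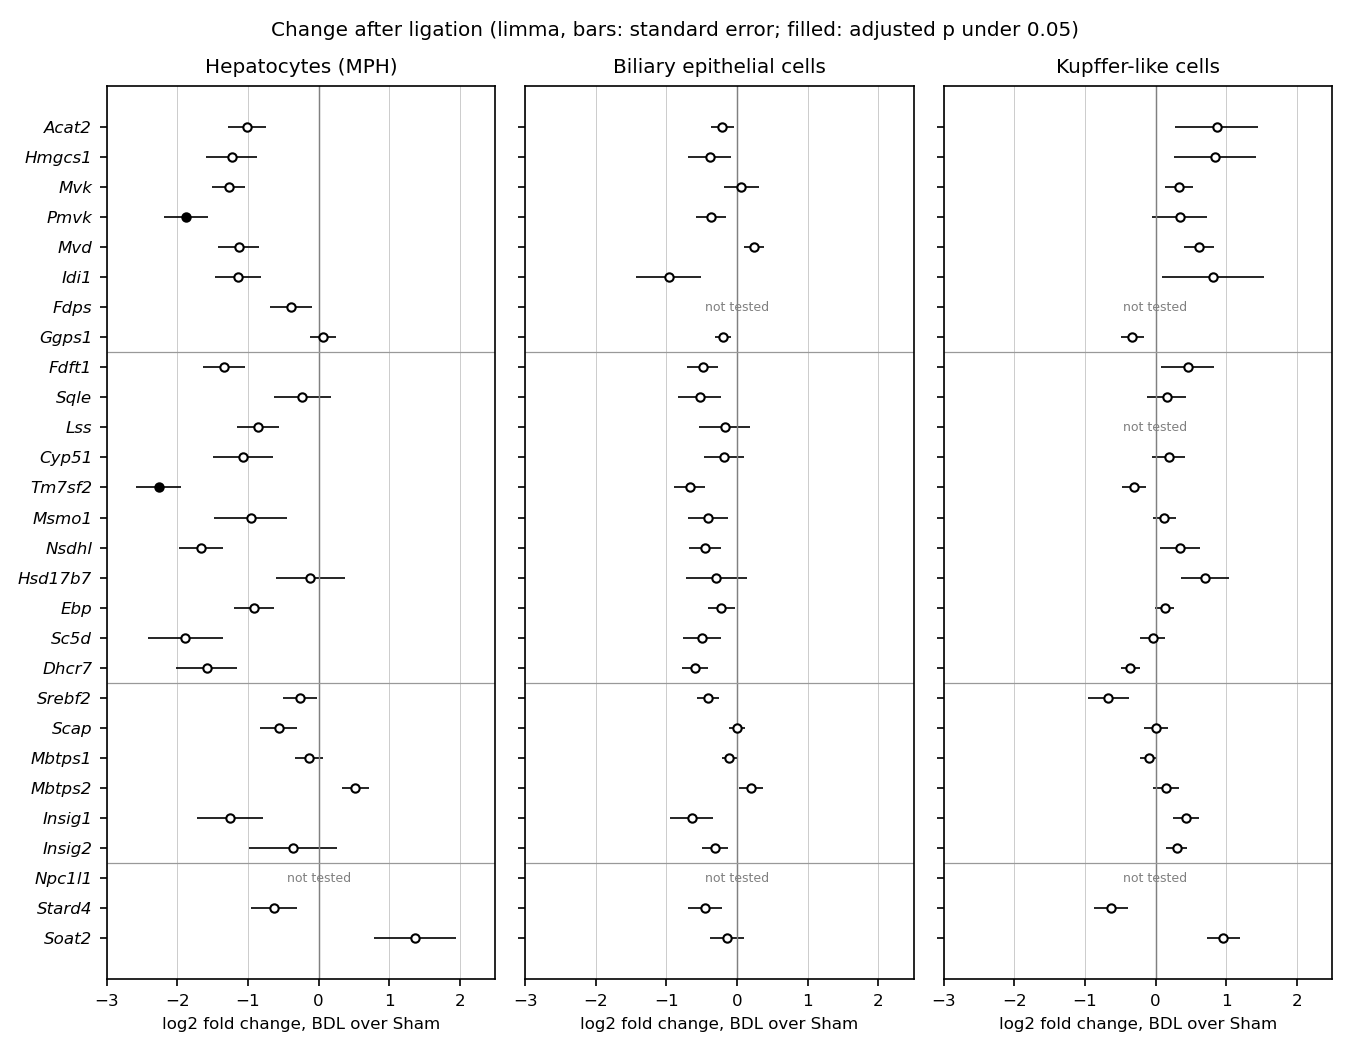
Log2 fold change of each member, BDL over Sham, on the log2(FPKM + 1) scale in the 3 cell types, with its standard error, and filled points where the adjusted p was under 0.05. The filled points are Tm7sf2 and Pmvk in hepatocytes, and the other members in any cell type are open or not tested.

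SREBP control genes in hepatocytes had smaller differences, with a median log2 fold change of −0.31 and none called. Srebf2 averaged 17.2 ± 4.0 FPKM in BDL and 20.6 ± 3.5 FPKM in Sham hepatocytes (−0.26, SE 0.24). Insig1, which SREBP2 itself switches on, had 76.1, 30.7 and 54.4 FPKM in BDL, against 66.8, 162 and 166 FPKM in Sham hepatocytes. The lowest Sham library lay below the highest BDL library (−1.25, SE 0.47, adjusted p = 0.185). Insig2, whose liver transcript is known to fall with insulin, had 75.5, 53.1 and 210 FPKM in BDL, against 64.2, 132 and 215 FPKM in Sham, so its libraries spread alike in both groups. Scap averaged 14.5 ± 2.0 FPKM in BDL and 22.5 ± 7.2 FPKM in Sham, and Mbtps1 averaged 8.04 ± 0.091 FPKM in BDL and 9.06 ± 2.0 FPKM in Sham. Mbtps2 had a positive value, with 2.38, 3.23 and 3.13 FPKM in BDL against 1.34, 1.85 and 2.00 FPKM in Sham hepatocytes (0.52, SE 0.19, adjusted p = 0.180), and 28.4% of its exon bases overlap Yy2.

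Soat2, which esterifies cholesterol in hepatocytes, had 13.6, 15.9 and 64.2 FPKM in BDL hepatocytes, against 5.81, 10.1 and 11.5 FPKM in Sham hepatocytes. Every BDL library lay above every Sham library, with BDL replicate 3 far above the others (1.37, SE 0.58, adjusted p = 0.227). That library was also the highest BDL hepatocyte library for Insig2 and Hsd17b7. Of the BDL hepatocyte libraries it had the lowest Kupffer cell marker sum and a hepatocyte marker sum of 118090, and it alone had no Y-linked transcripts. Stard4, a cytosolic sterol carrier, averaged 16.9 ± 5.7 FPKM in BDL and 26.8 ± 9.6 FPKM in Sham hepatocytes (−0.63, adjusted p = 0.306). Npc1l1, the cholesterol importer of the gut, had 0, 2 and 2 reads in BDL and 0, 1 and 0 reads in Sham hepatocytes. A library with 0 reads allows up to 3 reads, so no difference was detectable at this depth.

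Libraries also differed within groups. BDL replicate 2 was the lowest of the 6 hepatocyte libraries for 17 of 27 members and Sham replicate 3 the highest for 18. Within the BDL group replicate 2 lay a median 0.57 below the mean of the other libraries on the log2 scale over the members, against 0.01 above it over all genes. Sham replicate 1 lay 0.56 below and Sham replicate 3 0.66 above the other Sham libraries, against −0.06 and 0.11 over all genes. Hepatocyte markers summed to 64255, 75511 and 118090 FPKM in BDL hepatocytes, against 52255, 78193 and 121580 FPKM in Sham hepatocytes. Kupffer cell markers summed to 4926, 6632 and 2241 FPKM in BDL hepatocytes, against 10044, 4489 and 2422 FPKM in Sham hepatocytes. Sham replicate 1, low in the members, was thus the lowest Sham library in hepatocyte markers and the highest in Kupffer cell markers, and Sham replicate 3 the reverse. Of 6 monocyte markers 2 rose after ligation (Chil3 and F13a1), as did Krt7 of the biliary list, while 0 of 15 hepatocyte, 12 Kupffer cell and 8 sinusoidal endothelial markers were called. Stellate and fibroblast markers were positive in 8 of 8 genes (summed FPKM 165.2 to 296.8 in BDL and 62.4 to 143.1 in Sham hepatocytes) and neutrophil markers in 6 of 6 tested of 7 with a median of 1.34 (107.2 to 259.5 in BDL and 27.7 to 107.2 in Sham hepatocytes), with 0 called in either list. The part of these in the results was not tested. Without Sham replicate 3 the median over the members was −0.67, and 20 of 26 were negative.

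**Figure D3:**
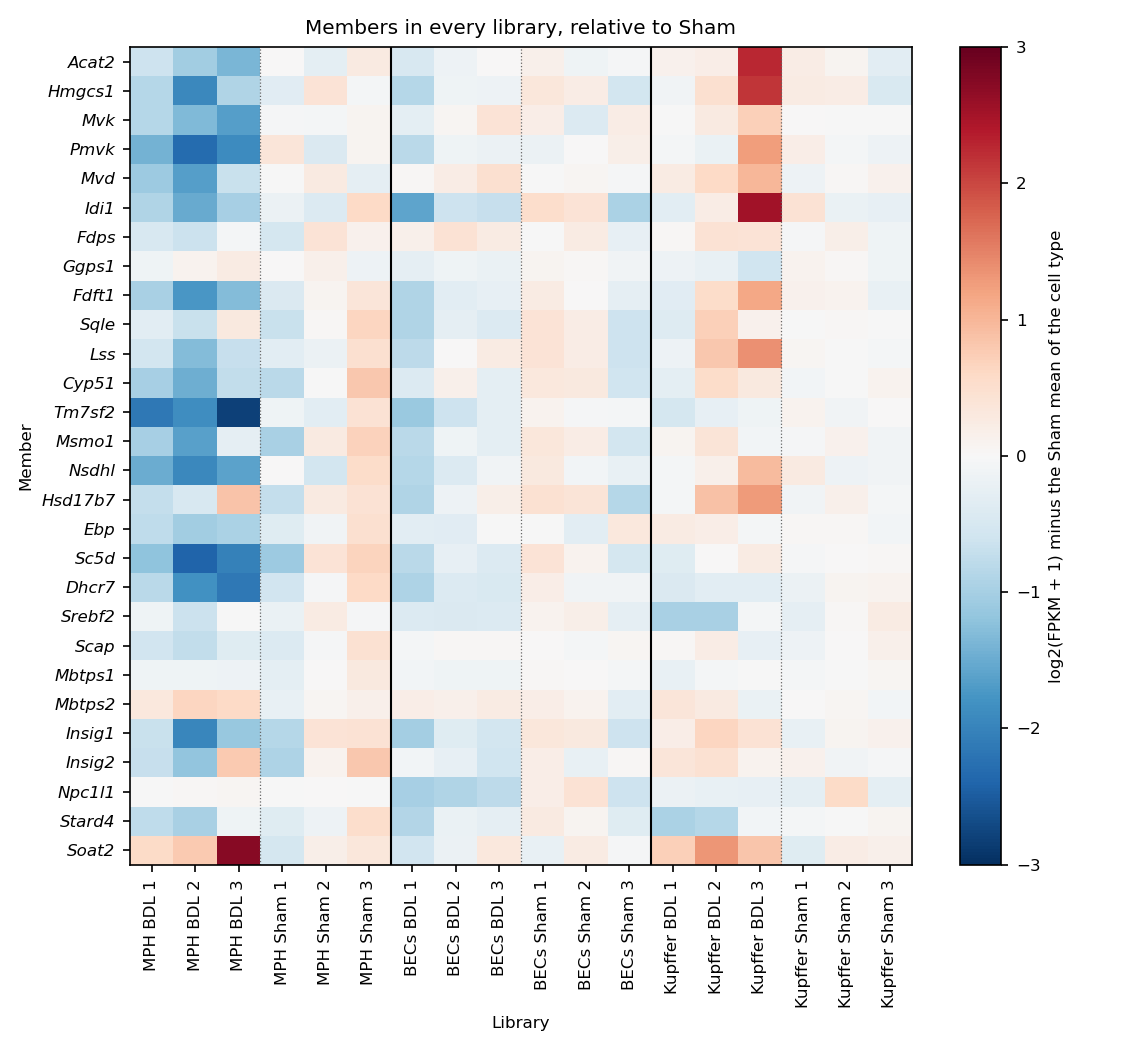
Each member in each of the 18 libraries as log2(FPKM + 1) minus the mean of the Sham libraries of its cell type (blue lower, red higher, limits at −3 and 3). BDL hepatocyte libraries are blue over most synthesis enzymes, the lowest being MPH BDL 2 for 17 members, and Kupffer BDL 3 stands out in red for Hmgcs1, Idi1 and Acat2.

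In BECs no member was called among the 26 tested, against 4.70% of 13573 genes called lower and 2.96% called higher (limma). At an unadjusted p under 0.05 there were 3 members, Dhcr7, Tm7sf2 and Srebf2, against 26.0% of all genes. The log2 fold change was negative in 22 of 26, with a median of −0.34 against −0.03 over all genes, and all 11 genes of the squalene and sterol segment were negative with a median of −0.45. Dhcr7 had 2.30, 3.69 and 3.52 FPKM in BDL BECs, against 6.21, 4.80 and 4.79 FPKM in Sham BECs. The groups did not overlap (−0.60, SE 0.18, adjusted p = 0.0915). Tm7sf2 had 1.43, 2.44 and 3.29 FPKM in BDL BECs, against 4.66, 4.12 and 4.03 FPKM in Sham BECs, again without overlap (−0.67, SE 0.21, adjusted p = 0.104). Without BDL replicate 3, Tm7sf2 was called in BECs (−0.86, adjusted p = 0.0459), which is 1 of 26 members against 4.26% of all genes called lower in that fit.

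Srebf2, at its highest level in this cell type, had 39.0, 38.0 and 38.7 FPKM in BDL BECs, against 55.5, 58.6 and 42.7 FPKM in Sham BECs. The BDL libraries were almost level and all lay below the Sham libraries (−0.42, SE 0.16, adjusted p = 0.155). Insig1 had 39.5, 63.5 and 55.0 FPKM in BDL BECs, against 103, 99.3 and 52.8 FPKM in Sham BECs, with Sham replicate 3 inside the BDL range. The same Sham library was the lowest Sham library for 19 of 26 members and the only Sham BEC library without Y-linked transcripts. Among these members was Idi1, which had 7.97, 16.5 and 15.9 FPKM in BDL BECs against 38.2, 35.1 and 13.0 FPKM in Sham BECs. BDL replicate 1 was the lowest of all 6 for 18 members. Without Sham replicate 3, 11 of 26 members had an unadjusted p under 0.05, against 29.2% of all genes, 0 were called and the median was −0.52. Every BDL library lay below every Sham library for 5 members (Srebf2, Mbtps1, Dhcr7, Tm7sf2 and Ggps1), against 18.8% of all genes, and above for 0, against 13.0%. Mvd and Mvk differed in the positive direction by 0.24 and 0.06, neither called.

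Npc1l1 had 0.195, 0.258 and 0.370 FPKM in BDL BECs, against 1.71, 2.20 and 0.527 FPKM in Sham BECs, which are 16, 21 and 34 reads against 152, 217 and 45. Every BDL library lay below every Sham library, and BECs held more Npc1l1 reads than hepatocytes in every library. It did not pass the filter. With no filter the log2 fold change was −0.89 (SE 0.28, adjusted p = 0.248). Hepatocyte markers, which the BEC libraries also carried, were lower in BDL than in Sham BECs for 14 of 15 genes with a median log2 fold change of −2.09 (2 called, Ttr and Serpinc1), and none was at 0 in every library of either group. The mean log2 level of these markers was 2.83 to 4.39 in BDL and 5.05 to 6.17 in Sham BECs, so it separates the groups completely, and with it as a covariate treatment and marker level cannot be told apart. In that fit 2 of 13573 genes and no member were called, and 24 of 26 members were negative. Sinusoidal endothelial markers fell in 7 of 8 genes (summed FPKM 46.9 to 69.9 in BDL and 120.4 to 177.6 in Sham BECs), and neutrophil markers rose in 5 of 6 tested of 7 (298.3 to 455.3 in BDL and 32.4 to 110.2 in Sham BECs). Their part in the BEC values was not tested.

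In Kupffer-like cells no member was called among the 25 tested, against 2.40% of 12748 genes called lower and 1.47% called higher (limma), and 4 had an unadjusted p under 0.05, against 24.1% of all genes. Here 18 of 25 log2 fold changes were positive, with a median of 0.19 against 0.03 over all genes. Under common sum scaling, with an all-gene median of −0.25, 13 members were positive and 13 negative, and under scaling to recovered reads, with an all-gene median of −0.15, the split was 15 and 11. Soat2 had 4.93, 8.04 and 5.36 FPKM in BDL Kupffer-like cells, against 1.79, 3.15 and 2.97 FPKM in Sham Kupffer-like cells. All BDL libraries lay above all Sham libraries, as in hepatocytes, and the adjusted p was 0.0759 (0.96, SE 0.24). Mvd had 10.6, 13.6 and 18.5 FPKM in BDL, against 7.71, 8.99 and 9.60 FPKM in Sham Kupffer-like cells, also without overlap (0.62, SE 0.21, adjusted p = 0.155).

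Mvd therefore lay above Sham in every BDL Kupffer-like library and below Sham in every BDL hepatocyte library. Insig1 had 29.0, 40.3 and 34.6 FPKM in BDL, against 21.7, 26.9 and 27.7 FPKM in Sham Kupffer-like cells (0.43, SE 0.18, adjusted p = 0.216). Insig1, Mvd and Soat2 were the members with every BDL library above every Sham library, against 16.7% of all genes. Those with every BDL library below were Stard4, Dhcr7, Tm7sf2 and Ggps1, against 15.6%. Dhcr7 averaged 2.80 ± 0.16 FPKM in BDL and 3.88 ± 0.50 FPKM in Sham Kupffer-like cells (−0.36, SE 0.13, adjusted p = 0.178). Dhcr7 and Tm7sf2 were thus below Sham without overlap in all 3 cell types. The share of all genes that were so in all 3 was not counted. The members below without overlap, 5 of 26 in BECs and 4 of 25 in Kupffer-like cells, were near the shares of all genes (18.8% and 15.6%). Tm7sf2 had a log2 fold change of −0.31 in Kupffer-like cells (SE 0.17, adjusted p = 0.310). Of Dhcr7 and Tm7sf2, only Tm7sf2 in hepatocytes was called in the limma fits with every library of a cell type.

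BDL replicate 3 of the Kupffer-like cells stood apart from the other BDL libraries. Idi1 had 3.13, 5.02 and 28.5 FPKM in BDL Kupffer-like cells, against 5.92, 3.50 and 3.33 FPKM in Sham Kupffer-like cells. Hmgcs1 had 10.7, 16.7 and 54.8 FPKM in BDL, against 13.9, 13.8 and 8.18 FPKM in Sham. Acat2 had 4.61, 4.86 and 23.6 FPKM in BDL, against 4.99, 4.41 and 3.13 FPKM in Sham. For Idi1 and Acat2 only the third BDL library lay above all Sham libraries, and for Hmgcs1 the second did too. Pmvk (20.5 FPKM) and Lss (3.80 FPKM) were likewise highest in that library. It had the lowest Kupffer cell marker sum of the Kupffer-like libraries, 3084 against 18957 and 13435 in the other BDL libraries, the highest neutrophil marker sum, 2291 against 884.0 and 825.7, and a hepatocyte marker sum of 3376, between the 1605 and 5079 of the others. The part of these in its levels was not tested.

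Without that library 2 of 25 members were called, both lower, against 9.10% of all genes called lower in that fit, so the count is near the background. Stard4, with 6.64, 7.11 and 12.8 FPKM in BDL and 13.0, 13.5 and 14.7 FPKM in Sham Kupffer-like cells, had a log2 fold change of −0.63 (SE 0.24, adjusted p = 0.189) with all libraries and −0.90 (SE 0.11, adjusted p = 0.00855) without it. Srebf2, with 10.0, 10.1 and 20.0 FPKM in BDL and 17.1, 21.1 and 24.6 FPKM in Sham Kupffer-like cells, had −0.67 (SE 0.29, adjusted p = 0.231) with all libraries and −0.98 (SE 0.17, adjusted p = 0.0194) without it. The third BDL library thus lay within the Sham range for Srebf2 and just below it for Stard4, while the other BDL libraries lay well below it in both genes. Without BDL replicate 1, the lowest of the BDL libraries for 18 of 25 members, Hsd17b7 was called higher (1.08, SE 0.19, adjusted p = 0.0485), against 1.14% of all genes called higher. Hsd17b7 had 1.20, 3.21 and 4.55 FPKM in BDL and 1.12, 1.56 and 1.21 FPKM in Sham Kupffer-like cells. Hepatocyte markers were higher in BDL than in Sham Kupffer-like cells for 15 of 15 genes (median 1.87, only Hp called). Their mean log2 level was 5.43 to 6.63 in BDL and 3.56 to 4.83 in Sham Kupffer-like cells, again without overlap. With it as a covariate 0 of 12748 genes were called, against 494 without it, and 18 of 25 members were negative with a median of −0.22, so treatment and marker level cannot be told apart in that fit. At an unadjusted p under 0.05 it had 0 members and 4.92% of all genes. Sinusoidal endothelial markers fell in 4 of 8 genes (summed FPKM 350.9 to 961.3 in BDL and 1283 to 1561 in Sham Kupffer-like cells), and neutrophil markers rose in 3 of 6 tested of 7 (825.7 to 2291 in BDL and 290.3 to 299.9 in Sham Kupffer-like cells). Their part in the Kupffer-like values was not tested. Npc1l1 had 7, 3 and 3 reads in BDL and 0, 73 and 1 reads in Sham Kupffer-like cells, so its Sham level rests on replicate 2.

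**Figure D4:**
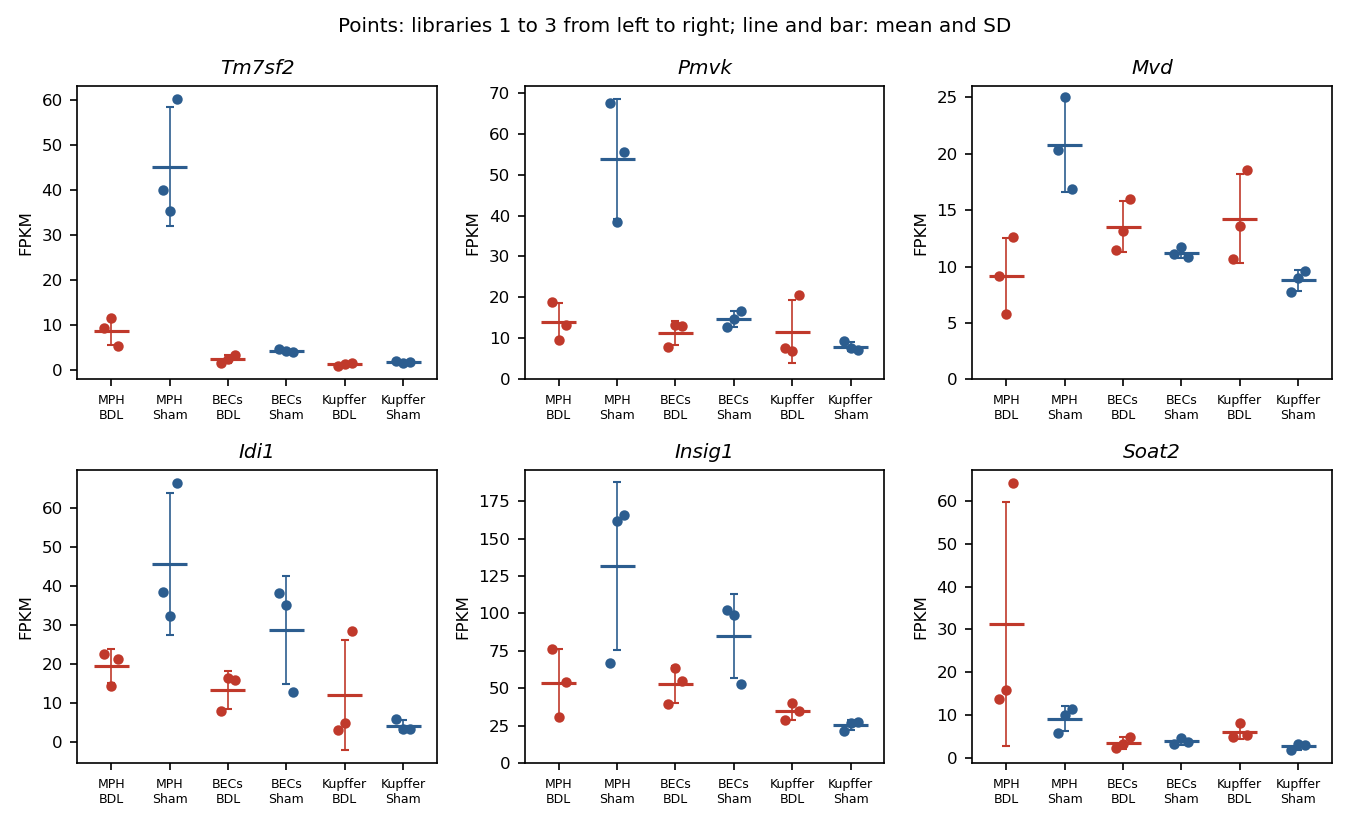
FPKM of 6 members in the 6 groups, with points for the 3 libraries, a line for the mean and a bar for the SD. Tm7sf2 and Pmvk are low in all BDL hepatocyte libraries, Mvd is low in BDL hepatocytes and high in BDL Kupffer-like cells relative to Sham, and single libraries stand high in Idi1 (28.5 FPKM, Kupffer BDL 3) and Soat2 (64.2 FPKM, MPH BDL 3).

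Whether the response differed between cell types was tested with an interaction term on the 12 libraries of each pair. The pairs share libraries, and with limma no member was called in any of them. For hepatocytes minus BECs, 7 of 27 members had an unadjusted p under 0.05, against 17.8% of all genes, and 1.60% of 14780 genes were called. The smallest was Mvd, at −1.38 (SE 0.34, adjusted p = 0.0704), followed by Tm7sf2 at −1.59 (SE 0.40, adjusted p = 0.0776). For BECs minus Kupffer-like cells, 3 of 26 had an unadjusted p under 0.05, against 21.4% of all genes, and 3.50% of 14874 genes were called, the smallest being Soat2 at −1.10 (SE 0.36, adjusted p = 0.109) and Insig1 at −1.07 (SE 0.38, adjusted p = 0.133).

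For hepatocytes minus Kupffer-like cells, 15 of 27 had an unadjusted p under 0.05, against 19.0% of all genes, 22 of 27 differences were negative with a median of −1.23, and 0.404% of 14101 genes were called. The smallest were Tm7sf2 at −1.96 (SE 0.37, adjusted p = 0.0541) and Mvk at −1.60 (SE 0.31, adjusted p = 0.0585), followed by Mvd at −1.75 (SE 0.38, adjusted p = 0.0676). Hepatocyte and Kupffer-like libraries share numbers in their titles in 3 pairs, and with that number as a replicate block 6 of 27 members were called lower in this difference, from −1.56 to −2.16, against 2.74% of all genes called lower (469 genes were called in all with the block and 57 without it). These were Tm7sf2 (adjusted p = 0.0249), Mvd (0.0248), Mvk (0.0248), Nsdhl (0.0288), Pmvk (0.0355) and Fdft1 (0.0485). They are 4 genes from mevalonate to squalene and 2 sterol enzymes. All 6 were below Sham without overlap in hepatocytes, as were 18.4% of all genes tested there. The difference uses those same hepatocyte libraries, so this is not separate support. The same 6 were called with all 18 libraries in a single model, against 4.22% of all genes called lower there, and in hepatocytes minus BECs that model called 3 lower (Tm7sf2, Mvd and Mvk), against 1.31%. Without Kupffer-like BDL replicate 3, and with no block, Tm7sf2, Pmvk and Mvk were called, against 1.43% of all genes called lower.

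Sham libraries give the level of each member by cell type. As deposited, the mean was highest in hepatocytes for 22 of 28 members, in BECs for 5 and in Kupffer-like cells for 1. It was lowest in Kupffer-like cells for 24. These counts depend on the scaling: under a common sum, 10 of 26 members changed sign between Sham hepatocytes and Sham BECs. The shares of all genes highest or lowest in each cell type were not counted. In Sham hepatocytes the highest means were Ebp at 165.8 FPKM, Insig2 at 137.2 ± 76 FPKM, Insig1 at 131.5 ± 56 FPKM and Sc5d at 119.9 ± 62 FPKM. Their SDs exceed the steps between these neighbours. In Sham BECs Insig1 led with 84.9 ± 28 FPKM, followed by Hmgcs1 with 67.2 ± 21, Srebf2 with 52.3 ± 8.4 and Cyp51 with 51.9 ± 17 FPKM. In Sham Kupffer-like cells Insig1 led with 25.4 ± 3.3 FPKM, before Srebf2 with 20.9 ± 3.7 and Ebp with 14.7 ± 0.86 FPKM. Insig1 was thus among the leading 3 members in each cell type.

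Between Sham hepatocytes and Sham BECs, 15 of 26 members tested were higher in hepatocytes and 2 lower, against 30.0% and 28.3% of 14466 genes. This split depended on the scaling: it was 9 and 7 of 27 under a common sum, against 10.1% and 62.1% of all genes, with the median of all genes at −0.83 in place of 0.01, and 10 and 5 under recovered reads, against 14.7% and 49.8%, with an all-gene median of −0.54. Of 26 members in both fits, 10 changed sign under a common sum and 7 under recovered reads. Members far above that shift were Insig2 (log2 fold change 3.51, SE 0.37), Ebp (3.17, SE 0.24) and Tm7sf2 (3.10, SE 0.19), which stayed higher in hepatocytes under each scaling. Their common sum values were 2.39, 2.04 and 2.03. The members lower in hepatocytes were Srebf2 (−1.30, SE 0.20) and Ggps1 (−0.78, SE 0.14), also under each scaling. Sqle had 26.0 ± 12 FPKM in hepatocytes and 24.3 ± 8.5 FPKM in BECs (0.06, SE 0.35), and under a common sum it was called lower in hepatocytes (−1.05).

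Between Sham hepatocytes and Sham Kupffer-like cells, 22 of 26 were higher in hepatocytes and 1, Ggps1, lower, against 28.7% and 28.1% of genes, and the split was 18 and 4 of 27 under a common sum (11.8% and 65.6% of genes) and 20 and 4 under recovered reads (15.0% and 56.6%). The all-gene medians there were −0.91 and −0.65. The replicate block left the counts at 22 and 1. Sc5d (4.18, SE 0.43), Tm7sf2 (4.05, SE 0.19) and Insig2 (3.85, SE 0.37) differed most. Srebf2, with −0.02 (SE 0.20), did not differ beyond its error as deposited. It was called lower in hepatocytes under a common sum and under recovered reads. Between Sham BECs and Sham Kupffer-like cells, 18 of 26 were higher in BECs and 0 lower, against 23.9% and 20.0% of genes, and 19 and 0 of 27 under a common sum (22.8% and 21.4% of genes) and 18 and 1 under recovered reads (22.2% and 22.7%). Cyp51 (3.00, SE 0.39), Sqle (2.75, SE 0.35) and Fdft1 (2.69, SE 0.23) differed most. Hepatocyte markers were also higher in Sham BECs than in Sham Kupffer-like cells for 14 of 15 genes (10 called, median 1.33). Their part in this comparison was not tested. Tm7sf2 and Insig2 were thus among the 3 members with the largest values in both hepatocyte comparisons.

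**Figure D5:**
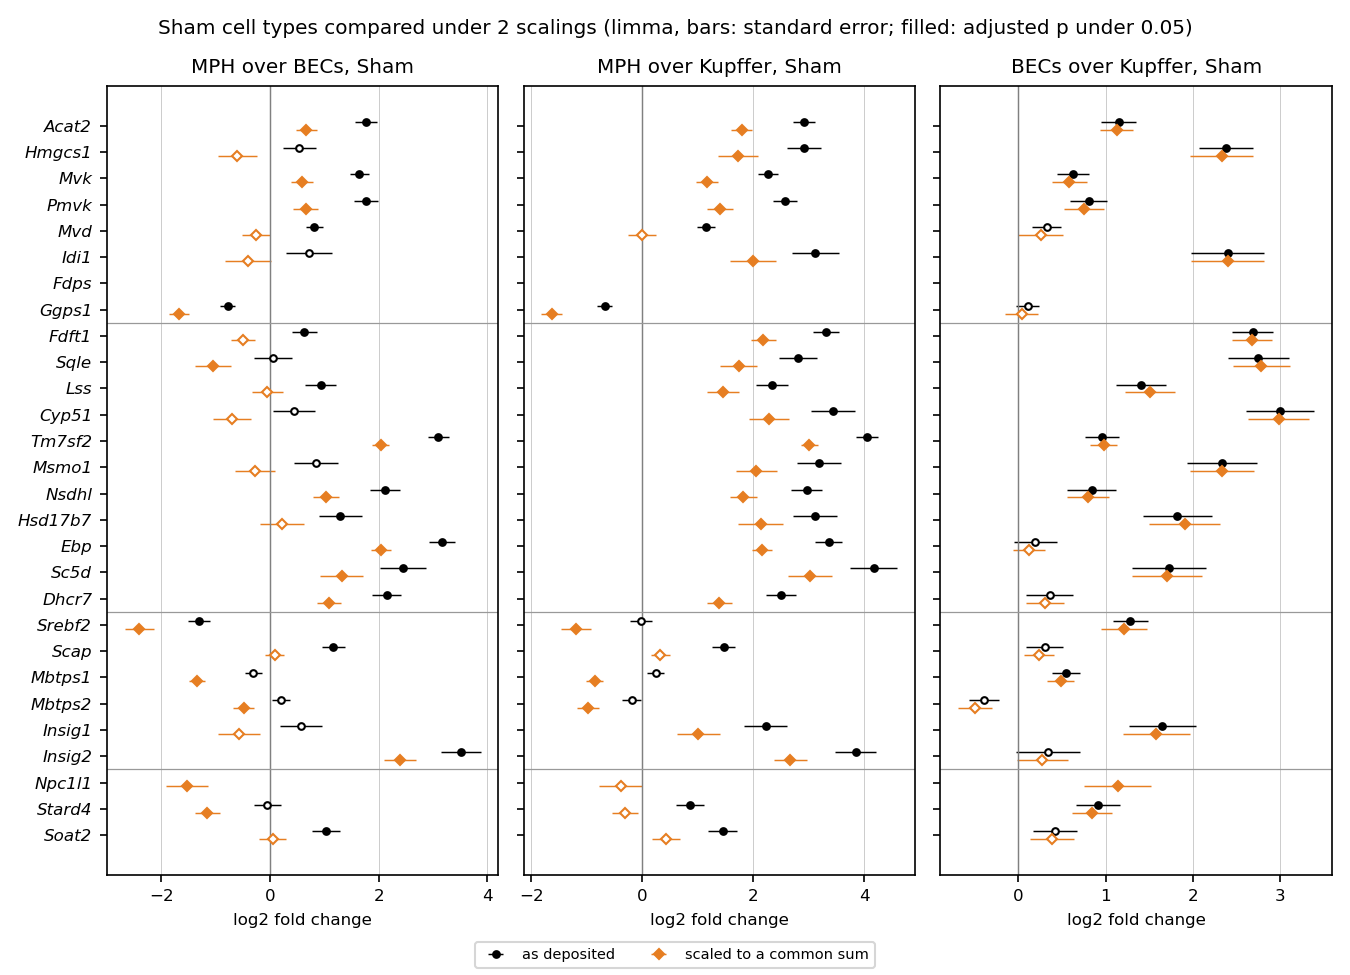
Log2 fold changes of the members between Sham cell types with their standard errors, as deposited (black circles) and after scaling each library to a common sum (orange diamonds), filled where the adjusted p was under 0.05. The common sum shifts both hepatocyte comparisons to the left, turning 10 members negative in hepatocytes over BECs, among them Fdft1, Lss and Mvd, which were called higher as deposited, and leaves BECs over Kupffer-like cells nearly in place.

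Genes around the pathway were counted by list. In hepatocytes none was called in any of 6 lists (limma), but the fatty acid arm of SREBP had a negative log2 fold change in 12 of 13 tested genes with a median of −0.82, and the cytosolic acetyl-CoA and thiolase genes in 8 of 8 with a median of −0.93. The lists of lysosomal and lipoprotein cholesterol uptake, isoprenoid branches, and oxysterols and sterol esterification lay near the all-gene median, at −0.18, −0.06 and −0.13, and the list of sterol enzyme degradation and SREBP trafficking at 0.24. In BECs 3 of 13 fatty acid genes fell, against 4.70% of all genes, namely Fads1 and Fads2, which desaturate fatty acids (log2 fold changes −1.27 and −1.26, adjusted p = 0.0102 and 0.0152), and Acss2, which makes cytosolic acetyl-CoA (−1.13, adjusted p = 0.0230). Fads1 had 14.7, 17.9 and 15.0 FPKM in BDL BECs, against 44.9, 35.8 and 38.4 FPKM in Sham BECs, and every BDL library lay below every Sham library. Acat1, the mitochondrial thiolase, fell in BECs too (−0.70, adjusted p = 0.0498), as did Pgrmc1, a haem-binding partner of sterol enzymes (−0.91, adjusted p = 0.0266), and Lcat, the plasma cholesterol acyltransferase made by hepatocytes (−1.79, adjusted p = 0.0484). Hepatocyte markers were lower in the same BDL libraries (median −2.09), and Sham hepatocytes averaged 138.8 FPKM of Acat1, 741.4 of Pgrmc1 and 364.8 of Lcat, against 21.5, 101.8 and 13.0 FPKM in Sham BECs. The part of hepatocyte RNA in these values was not tested, since the marker covariate separates the groups. In Kupffer-like cells the single call in these lists was Sec24d, a coat protein of vesicles that leave the endoplasmic reticulum. It was 1 of 14 tested genes in its list, against 1.47% of all genes called higher. Sec24d had 12.1, 13.1 and 10.7 FPKM in BDL, against 7.59, 7.22 and 7.07 FPKM in Sham Kupffer-like cells (0.64, SE 0.12, adjusted p = 0.0489). This call sat near the threshold, and leaving out any Sham Kupffer-like library left 0 genes called over all genes. The fatty acid arm there was positive in 10 of 12 genes with a median of 0.40.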

How the data were processed

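Polyadenylated RNA was measured in 18 libraries, 6 groups of 3, grouped by the cell type and treatment labels. Per the submitters' processing notes, the authors used CASAVA 1.8, fastp, HISAT2 2.0.5, featureCounts 1.5.0-p3 and DESeq2 1.20.0 with GRCm38 (mm10). The deposited values are FPKM per gene. Strandedness and annotation release: not given in the sources used here. Read depth was recovered from the FPKM and GENCODE M21 exon lengths: below 200 reads, 97.4% to 98.4% of values were whole within 0.02.

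Values were tested as log2(FPKM + 1) with limma 3.58.1 in R 4.3.3 (trended, robust, 2-sided) over all genes having an FPKM of 1 or more in 3 or more libraries of a fit, and called when the adjusted p (Benjamini-Hochberg) was under 0.05. Fold changes on this scale understate the change of low genes. Ligation was tested in 6 libraries per cell type, differences of response in 12 and cell types in the 9 Sham libraries. The pipeline was tested on simulated data. Count tools were not used, since no count table was used. Hepatic stellate cells were not analysed here.

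Title numbers were taken to pair hepatocyte and Kupffer-like libraries: the 3 same-numbered pairs had correlations of deviations from their group means of 0.230, 0.337 and 0.305 over 14101 genes (block through duplicateCorrelation, statmod 1.5.0). Pairs of the same treatment with different numbers ran from −0.338 to 0.215, so the lowest same-numbered value was little above the highest of these. Pairing was by the number in the titles and this check, as the labels do not say what the number marks.

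The members and lists were chosen with earlier results of these data known. All members were described, with values of each library for those called or, where none was, the 2 with the smallest p. Members whose library values are given beyond these, and the Hmgcs1 promoter, were chosen after their values were seen. Other settings were a pseudocount of 0.1, no filter, a common sum, all 18 libraries in 1 model, hepatocyte markers or sex as a covariate, the title block and leaving out each library. Scaling to recovered reads was added after seeing the data.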

Additional observations from a re-analysis of the deposited data

How the results depend on the processing

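The 2 members called in hepatocytes after ligation became 1 (Tm7sf2) with a pseudocount of 0.1, a common sum, recovered reads or sex as a covariate, 0 with no filter on low values, and 12 with all 18 libraries in 1 model. That model borrows its spread from the other cell types and called 10 lower and 2 higher (Mbtps2 and Soat2). Leaving out each library gave 0 called members in hepatocytes each time, 0 to 1 in BECs and 0 to 2 in Kupffer-like cells, and over all genes 8 to 77, 86 to 1033 and 0 to 2272 (194, 1040 and 494 with all libraries). No filter gave 18, 81 and 0 over all genes, the 18-library model 724 higher and 1430 lower in hepatocytes, with 825 and 1222 called in the others, and sex as a covariate 147, 576 and 1. For the differences of response, none of which had a called member, the 18-library model called 3 (hepatocytes minus BECs: Tm7sf2, Mvd and Mvk) and 6 (hepatocytes minus Kupffer-like cells), the replicate block called 6, and leaving out each library gave 0 to 2, 0 to 3 and 0 to 1 in hepatocytes minus BECs, hepatocytes minus Kupffer-like cells and BECs minus Kupffer-like cells. The block changed no count of called members in the Sham comparison of hepatocytes and Kupffer-like cells.

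Sign changes that involved a call occurred in the Sham comparisons with hepatocytes under the other scalings. Against BECs 5 of the 10 sign changes under a common sum were of this kind, and their log2 fold changes were −0.50 for Fdft1 (−0.11 under recovered reads), −0.054 for Lss, −0.26 for Mvd, −1.05 for Sqle and −0.49 for Mbtps2. Against Kupffer-like cells they were −0.31 for Stard4, −0.0061 for Mvd and −0.86 for Mbtps1 (−0.54 under recovered reads). Members not called in either fit changed sign elsewhere too: after ligation 2 in hepatocytes under a common sum, 6 in Kupffer-like cells under a common sum, 4 under recovered reads and 11 with the hepatocyte marker covariate, in BECs 4 with that covariate and 2 with sex, up to 5 in the differences of response under the scalings, and up to 5 in a comparison with a library left out. The construction of these scalings lowers hepatocyte values relative to the other cell types. Counts of called members in the 3 Sham comparisons stayed within 1.5 times under every setting run. Npc1l1 and Fdps rest on few reads, with at most 102 (Fdps) and 217 (Npc1l1) in a library.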
